A study of Mus musculus with 4 samples.

Results

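The regions described here are stretches of the mouse autosomes that carried trimethylation of histone H3 at lysine 27 (H3K27me3) in both adult bone marrow and fetal liver progenitors, but with more of their length inside bone marrow peaks. They were found by joining the broad peaks of both cell types that lay at most 3 kb apart into union regions. A region was kept when it lay on chromosomes 1 to 19, was at least 5 kb wide, held peak bases of both lists and had at least 25% more bases in bone marrow peaks than in fetal liver peaks. The members were thus chosen by the ratio of covered bases. There were 562 such regions among 22283 union regions, of which 4725 were shared, autosomal and at least 5 kb wide. Bone marrow cells were lineage-negative cells of C57BL/6 mice aged 8 weeks. Fetal liver cells were lineage-negative cells of the same strain at embryonic day 14.5. Both were transduced with a lentivirus carrying N1dE, a truncated NOTCH1, cultured with cytokines for 3 days and sorted for the viral GFP marker, so no group without N1dE was compared. Chromatin was cut with micrococcal nuclease without fixation and precipitated with an antibody to H3K27me3. Each cell type came with 1 peak list, called on merged libraries against an input library, and the sources used here do not give the number of animals or cultures behind a list. The lists hold no expression values, so the identity of the cells rests on the labels alone.

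H3K27me3 is deposited by Polycomb repressive complex 2, whose catalytic subunit is EZH2 or EZH1, and is found over silent genes, many of them encoding regulators of development. The complex also binds the mark it makes, which is thought to let a domain extend from a nucleation site into neighbouring nucleosomes. In blood formation the mark is redistributed as stem and progenitor cells mature and as fetal blood formation gives way to adult blood formation. The part of a domain that a broad peak caller reports depends both on the amount of mark and on sequencing depth, which is unknown here. Bases outside a peak are therefore bases where the caller made no call, and are not bases shown to lack the mark.

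Bone marrow cover exceeded fetal liver cover by the chosen ratio in 11.9% of the shared wide autosomal regions (95% Wilson interval 11.0 to 12.8%, which covers counting error over regions only). The opposite imbalance, with fetal liver cover ahead by at least 25%, was found in 57.3% of them, or 2706 regions. The other 1457 regions, in which neither list was ahead by 25%, are called evenly filled below. This imbalance was much smaller under some cuts: 711 regions were filled more in bone marrow and 864 in fetal liver once peaks under 2-fold enrichment were removed. Removing peaks whose −log10 q was under 2 left 138 against 148. Median fold enrichment was 2.12 in the whole bone marrow list and 1.93 in the whole fetal liver list. The 2-fold cut thus removed a larger part of the fetal liver list. Median −log10 q was 1.38 and 1.09, and the part of these differences in the counts was not tested. Dividing the ratio by its median gave 1427 against 1642, but this division centres the ratios in advance. Such near-equal counts therefore say nothing about the imbalance. The median ratio of bone marrow to fetal liver bases over all 4725 regions was 0.73. Since the ratio defined the regions, the values of cover that follow describe them and support no difference between the cell types. With 1 list per cell type there is no spread between replicates, and no test was made.

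**Figure D1:**
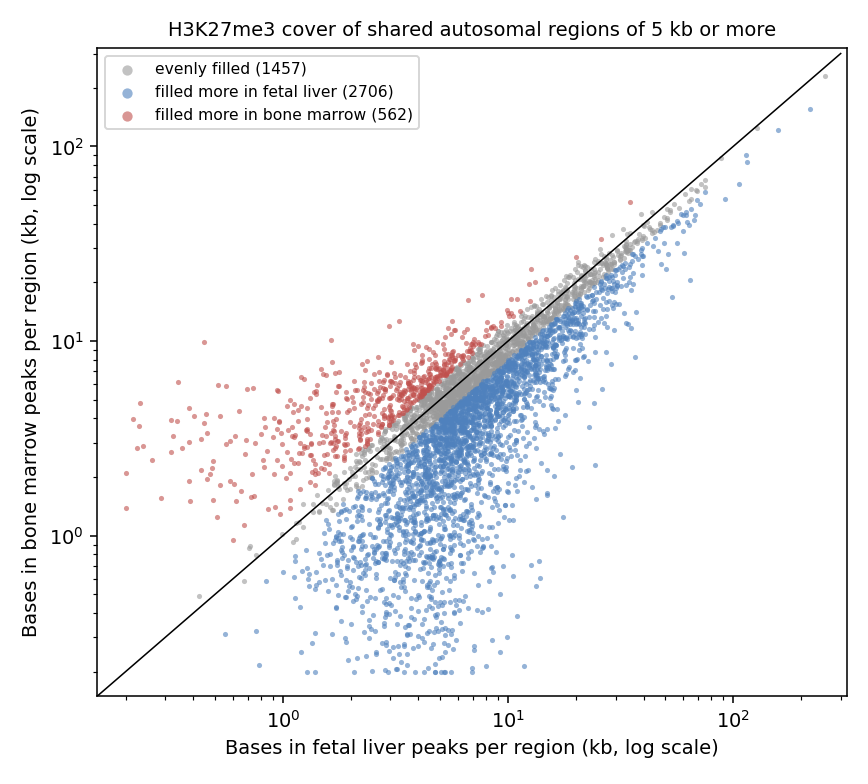
Bases inside bone marrow peaks (vertical axis, kb, log scale) against bases inside fetal liver peaks (horizontal axis, kb, log scale) for the 4725 shared autosomal regions of at least 5 kb, 1 point per region, with the line of equal cover. The 562 regions filled more in bone marrow lie above the line and mostly at small sizes, and the 2706 filled more in fetal liver lie below it.

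The 562 regions spanned 5.00 Mb, of which bone marrow peaks covered 3.26 Mb and fetal liver peaks 1.89 Mb. The bases covered in both lists came to 1.53 Mb. Most of the fetal liver cover was thus also bone marrow cover, and in 132 regions every fetal liver base lay inside a bone marrow peak. At the other end, 41 of the 562 regions held peaks of both lists that shared no base and were joined only because they lay close together. The same was true of 225 of all 4725 shared wide regions. The median region was 7.51 kb wide (range 5.00 to 61.0 kb), with 5.29 kb inside bone marrow peaks and 2.90 kb inside those of fetal liver. The median share of a region's length inside peaks was 66.4% in bone marrow and 35.7% in fetal liver. The excess of bone marrow over fetal liver bases had a median of 2.08 kb and an interquartile range of 1.35 to 3.07 kb, and reached 5 kb in 40 regions. The median ratio was 1.64. It was at least 2 in 196 regions, at least 4 in 60 and at least 10 in 14. In 75 regions less than 1 kb lay in fetal liver peaks, and such small denominators can give high ratios.

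The 3 regions nearest to the threshold from inside were on chromosome 12 from 81546122 to 81556164, where bone marrow peaks took 6.67 kb against 5.33 kb of the fetal list, then on chromosome 7, positions 56930670 to 56943743, where they took 8.30 kb against 6.63 kb, and on chromosome 13, positions 81492392 to 81500497, at 2.95 kb against 2.36 kb. The nearest from outside were on chromosome 12 from 117721929 to 117732180, at 6.03 kb against 4.83 kb, then on chromosome 2, positions 146906227 to 146928197, at 11.2 kb against 8.98 kb, and on chromosome 4, positions 136389164 to 136396384, at 5.50 kb against 4.40 kb. The values on the 2 sides of the threshold run into each other, so the class has no natural border. All coordinates are on mm9 and counted from 1. Genes were not placed on the regions, for want of an mm9 annotation among the tables used, so the regions are named by position.

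The largest excess was on chromosome 3, from 96221347 to 96282340, which was also the widest of the 562 regions at 61.0 kb. It held 8 peaks of each list, which covered 51.5 kb in adult and 34.9 kb in fetal cells. One bone marrow peak of 33.0 kb ran through all 7 gaps between the fetal liver peaks, the widest of which was 14.6 kb. Before the first fetal liver peak, bone marrow peaks added 7.12 kb, and after the last they added 0.98 kb. The called cover was thus both more continuous and longer on one side in bone marrow. A shared region 41.3 kb wide ended 5.90 kb before it and was covered nearly equally, by 35.3 kb of bone marrow peaks against 33.8 kb.

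The region next in excess lay on chromosome 2, positions 17944654 to 17975467, where 5 bone marrow peaks held 23.5 kb against 12.6 kb in 6 fetal liver peaks. Its bone marrow peaks closed 4 of the 5 fetal liver gaps and extended past the fetal liver peaks by 2.52 kb on one side and 2.32 kb on the other. It stood alone, with no other union region within 200.4 kb before or 399.6 kb after it. On chromosome 13, from 21546202 to 21576766, there were 16.3 kb in 8 bone marrow peaks against 6.62 kb in 7 fetal ones. Here the fetal liver peaks spanned nearly the whole region, and 10.6 kb of bone marrow cover lay between them against 0.35 kb outside. The cover was broken up in both lists, the widest bone marrow peak being 5.01 kb and the widest fetal one 2.40 kb. On chromosome 4, from 151489257 to 151508268, a single bone marrow peak of 15.3 kb overlapped all 3 fetal liver peaks, which were 2.88 kb or shorter, and cover was 17.2 kb against 7.68 kb.

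Other regions had much of the extra cover outside the fetal liver peaks. On chromosome 18, from 6128951 to 6145686, 9.88 kb of bone marrow cover in 5 peaks lay around a lone fetal liver peak of 0.45 kb, with 4.96 kb of bone marrow cover before it and 4.47 kb after it. This gave the highest ratio of all 562 regions, 22.2. By −log10 p that fetal liver peak stood at percentile 18.0 of its list. On chromosome 16, from 22156289 to 22171042, cover was 12.0 kb against 2.97 kb. A bone marrow peak of 10.5 kb with a fold enrichment of 2.69 ran over both fetal liver peaks, and 6.00 kb of bone marrow cover lay before the first of these and 1.77 kb after the last. A region marked in bone marrow alone, with 7.34 kb in peaks, ended 3.97 kb before it and missed being joined to it by less than 1 kb. On chromosome 6, from 88136365 to 88154890, the 5 bone marrow peaks took up 12.6 kb against 3.26 kb for 3 fetal peaks, and 7.60 kb of bone marrow cover lay outside the fetal liver peaks on both sides. On chromosome 14, from 75666277 to 75679977, cover was 10.2 kb against 1.64 kb, with 4.95 kb of the bone marrow cover between the 2 fetal liver peaks and 3.58 kb outside them, so that gap and edge both took part.

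**Figure D2:**
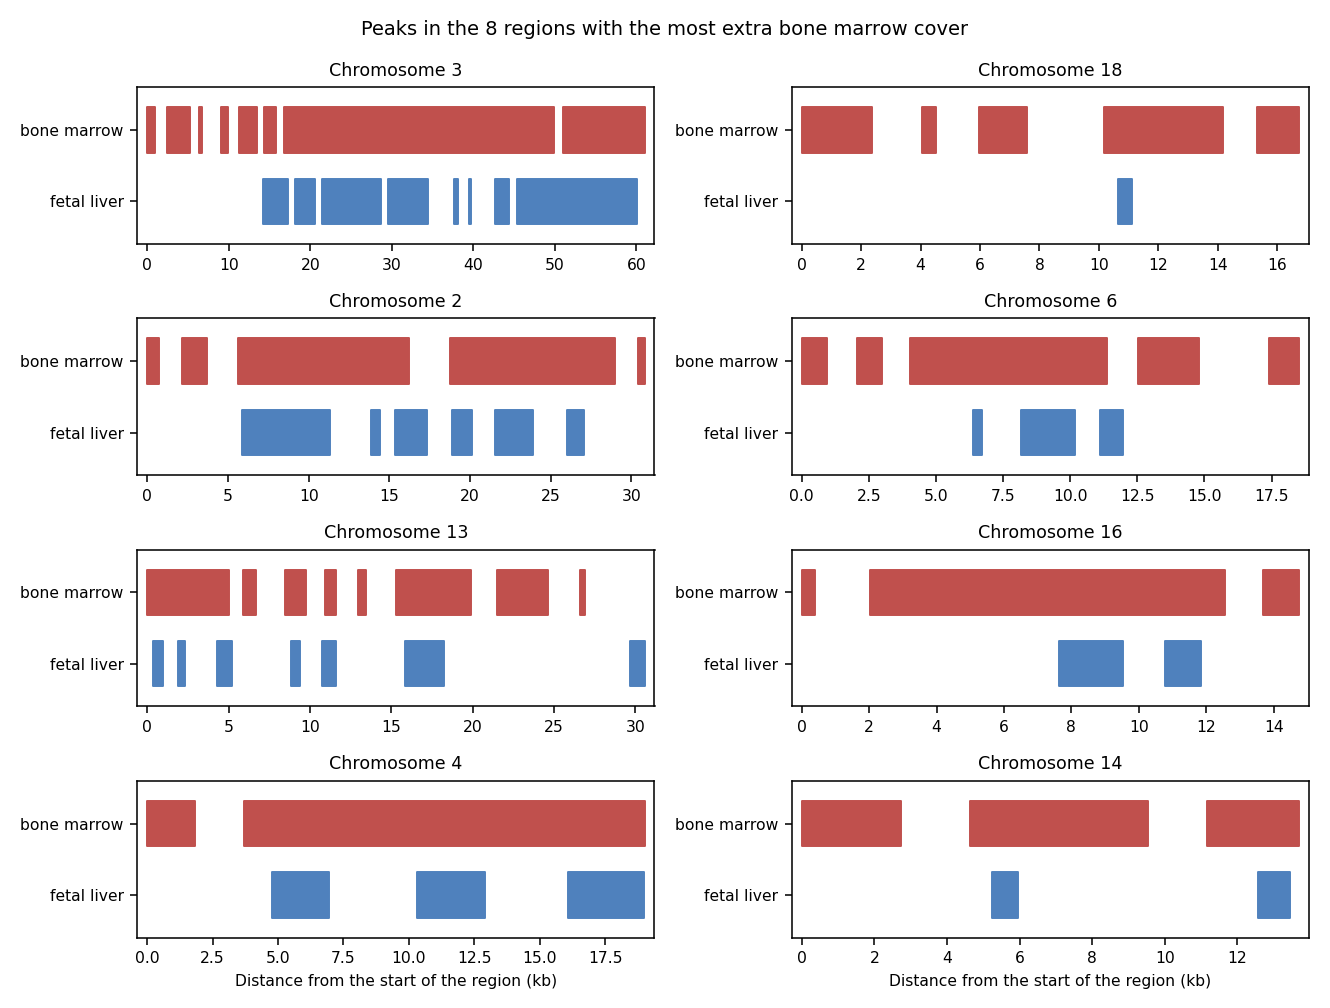
Peaks of each list in the 8 regions with the largest excess of bone marrow cover, as distance from the start of the region in kb, with 1 box per peak. On chromosomes 3, 2 and 4 long bone marrow peaks run across gaps between fetal liver peaks, whereas on chromosome 18 bone marrow peaks lie on both sides of 1 short fetal liver peak.

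The remaining 7 of the 15 regions with the largest excess had 6.18 to 7.56 kb more in bone marrow. The region on chromosome 8, from 114245632 to 114286263, had 33.3 kb in 4 bone marrow peaks and 25.7 kb in 7 fetal liver peaks. That on chromosome 6, from 72160959 to 72192338, had 27.1 kb in 3 and 20.1 kb in 4. These were wide domains with ratios of 1.29 and 1.35, close to the threshold. On chromosome 7, from 125584066 to 125608134, cover was 19.7 kb against 12.4 kb, with 10.2 kb of bone marrow cover in the fetal liver gaps and 0.57 kb outside. On chromosome 4, from 107657665 to 107672616, it was 12.6 kb against 5.65 kb, again with most of the difference in gaps. On chromosome 11, from 102668409 to 102693858, it was 20.1 kb against 13.2 kb, with 5.69 kb of bone marrow cover before the first fetal liver peak and none after the last. Another region of chromosome 11, from 96731229 to 96742341, had 7.84 kb against 1.65 kb, the fetal liver part being in 4 peaks of at most 0.53 kb. On chromosome 7, from 4102508 to 4117638, it was 11.7 kb in 4 bone marrow peaks against 5.43 kb in 2 fetal ones.

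Bone marrow peaks in the 562 regions held 1724.6 kb that lay outside fetal liver peaks. Of these, 1018.2 kb (59.0%) were at the outer edges, before the first or after the last fetal liver peak of the region, and 706.4 kb (41.0%) were in gaps between fetal liver peaks. The edges gained about equally on both sides, with 503.6 kb towards the chromosome start and 514.6 kb towards the end. Single regions were less even. In 294 of them bone marrow cover went past the fetal liver peaks on both sides, in 235 on one side and in 33 on neither. Fetal liver peaks held 358.4 kb outside bone marrow peaks in the same regions, 42.9% of it at the edges.

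The extra cover mostly continued a shared peak. Bases of bone marrow peaks that overlapped a fetal liver peak made up 70.6% of the bone-marrow-only bases, with 35.3% at edges and 35.3% in gaps. Separate bone marrow peaks at the edges gave 23.7% and separate peaks inside gaps 5.69%. Separate peaks were short, with a median of 770 bp over 533 peaks, whereas the 800 bone marrow peaks that overlapped a fetal liver peak had a median of 2798 bp.

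The division between edges and gaps depended on how many fetal liver peaks a region held. In 166 regions there was a single fetal liver peak, so that gaps could not exist and all 434.4 kb of extra cover counted as edge. In the 396 regions with several fetal liver peaks the larger part of the extra cover was in gaps, at 54.8%, against 45.2% at the edges. With 2 fetal liver peaks the edges held 58.3% of it (241 regions), with 3 they held 39.7% (95 regions) and with 4 or more 22.9% (60 regions). More peaks mean more gaps, while a region keeps 2 edges. The bone-marrow-only bases of evenly filled regions showed the same fall, at 46.8%, 28.9% and 19.2%. The fall was thus not particular to the 562 regions. Of the 396 regions, 79 had at least 75% of the extra cover at the edges, 98 had at least 75% of it in gaps and 219 were mixed.

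Summed over the class, regions filled more in fetal liver showed nearly the same division when the roles of the lists were exchanged. Of the fetal-liver-only bases there, 58.4% were at edges and 41.6% in gaps, and with several bone marrow peaks in the region 58.2% were in gaps. The evenly filled regions differed from both, with 36.0% of the bone-marrow-only and 41.7% of the fetal-liver-only bases at edges. The classes were defined by cover, and the part of that definition in this contrast was not tested. The edge share of the regions filled more in bone marrow was within 1 percentage point of that of their fetal liver counterparts.

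**Figure D3:**
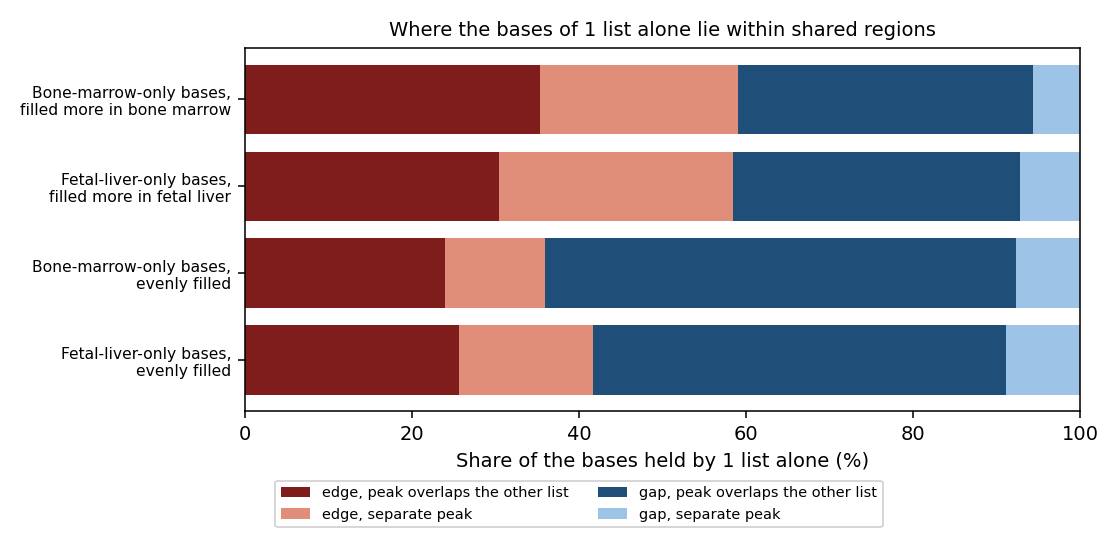
Share of the bases held by 1 list alone (horizontal axis, %) that lay at the outer edges or in gaps of the other list, in peaks that overlap the other list or in separate peaks, for 4 sets of regions. Edges hold 59.0% of the extra bone marrow bases and 58.4% of the extra fetal liver bases in the regions filled unequally, against 36.0% and 41.7% in evenly filled regions.

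Gaps between fetal liver peaks were often covered from end to end. The 562 regions had 647 such gaps, with a median length of 1719 bp, and 223 of them (34.5%, 95% Wilson interval 30.9 to 38.2%) lay wholly inside bone marrow cover. Another 61 held no bone marrow base. Over all gaps together, 48.6% of the length was covered in bone marrow. Short gaps were closed most often, with 76 of 122 under 1 kb, 137 of 371 from 1 kb to under 3 kb and 10 of 154 of 3 kb or more. In the regions filled more in fetal liver, 1372 of 3800 gaps between bone marrow peaks were closed by fetal liver cover (36.1%, 34.6 to 37.6%). Gaps longer than the joining distance cannot be empty, because a peak of the other list is what joins their sides.

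Peak numbers differed less than cover. The 562 regions held 1333 bone marrow and 1209 fetal liver peaks, or 0.907 fetal liver peaks for each bone marrow peak, whereas bone marrow bases were 1.72 times the fetal liver bases. The mean width of these peaks was 2443 bp in bone marrow and 1563 bp in fetal liver, a ratio of 1.56. Wider peaks thus accounted for more of the extra cover than the number of peaks did. The order of the peak numbers depended on the cut. Fetal liver had 1.30 peaks for each bone marrow peak when peaks were joined within 1 kb. It had 1.004 when the ratio of bases was divided by its median over shared wide regions. Bone marrow had more peaks than fetal liver in 223 regions, as many in 188 and fewer in 151. The most frequent arrangement was 2 peaks of each list, in 100 regions. In 90 regions a single bone marrow peak stood beside several fetal liver peaks, and in 49 regions there was 1 peak of each.

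Some bone marrow peaks joined what were separate peaks in fetal liver. There were 181 bone marrow peaks that overlapped at least 2 fetal liver peaks, in 173 regions, against 31 fetal liver peaks that overlapped at least 2 bone marrow peaks, in 29 regions. The widest bone marrow peak was wider than the widest fetal liver peak in 520 of the 562 regions, with medians of 3.78 kb and 1.93 kb. Peaks of at least 5 kb numbered 209 in bone marrow and 46 in fetal liver. In the regions filled more in fetal liver, the order of each of these counts was the opposite, with 1022 joining fetal liver and 282 joining bone marrow peaks. In the 1457 evenly filled regions, 473 of 3753 bone marrow peaks joined fetal liver peaks, in 432 regions. Fetal liver peaks that joined bone marrow peaks numbered 496 there, of 4019. Joining by bone marrow peaks was thus not particular to the 562 regions.

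**Figure D4:**
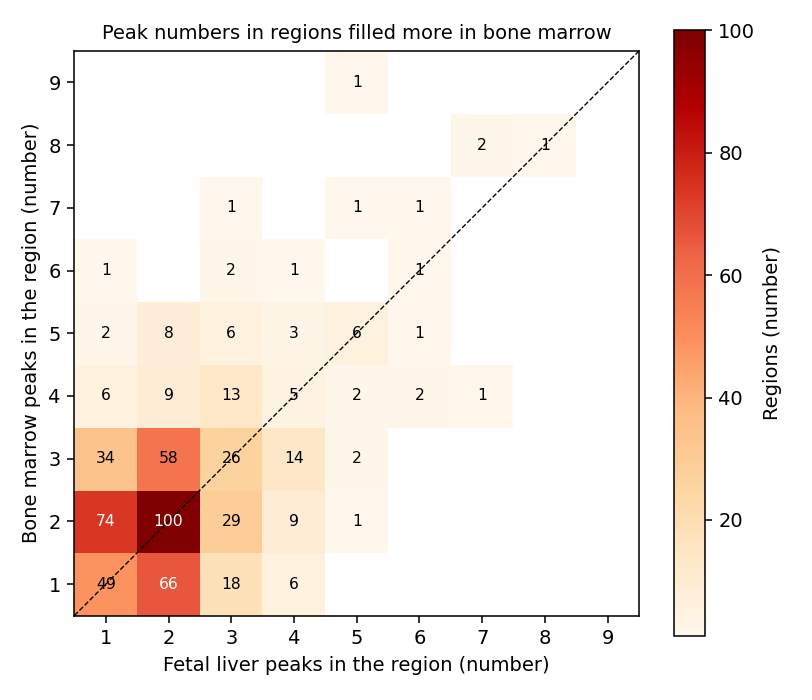
Number of regions filled more in bone marrow (colour and figures) by the number of bone marrow peaks (vertical axis) and fetal liver peaks (horizontal axis) in the region, with the line of equal numbers. The 100 regions with 2 peaks of each list form the fullest cell, and 151 regions lie below the line, with fewer bone marrow than fetal liver peaks.

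The peaks in these regions were of ordinary strength within their own lists. Fold enrichment over input, as given by the authors' peak caller, had a median of 2.15 (interquartile range 1.89 to 2.51) for the 1333 bone marrow peaks, against 2.12 for all bone marrow peaks. For the 1209 fetal liver peaks it was 1.91 (1.70 to 2.20), against 1.93 for the whole fetal liver list. The median −log10 q was 1.44 and 1.05, respectively. Ranked by −log10 p within its list, the median bone marrow peak stood at percentile 53.0 and the median fetal liver peak at percentile 47.6. In the evenly filled regions the same medians were 53.1 and 54.4, and in those filled more in fetal liver 50.8 and 51.0. Fetal liver peaks of the 562 regions thus ranked a little lower in their list than those of the other classes, while the bone marrow peaks did not stand higher than in the evenly filled regions. Peak width differed between the classes as well, with a median of 988 bp for these fetal liver peaks and 1931 bp in the evenly filled regions. Among fetal liver peaks from 2 kb to under 5 kb the median percentile was 55.0 in the 562 regions. It was 54.6 in evenly filled regions and 52.1 in those filled more in fetal liver. From 1 kb to under 2 kb it was 42.3, 46.6 and 48.3. At 5 kb or more it was 53.3 over 46 peaks of the 562 regions, against 58.0 and 56.3. The rank was thus lower in the 562 regions in the classes from 1 kb to under 2 kb and at 5 kb or more, and not from 2 kb to under 5 kb. Peaks under 1 kb were not compared in this way, although the median width of these fetal liver peaks was 988 bp.

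The strongest single bone marrow peak in the mapped regions was a short one. In the chromosome 16 region the last bone marrow peak, of 1.06 kb, reached a 5.37-fold enrichment at a −log10 q of 8.07, which put it at percentile 99.9 of its list, and no fetal liver peak overlapped it. The wide peak of the same region stood at percentile 88.6. The 33.0 kb peak of the chromosome 3 region had a fold enrichment of 2.26 and stood at percentile 67.4. On chromosome 13 the order went the other way, since the first 3 fetal liver peaks of that region had fold enrichments of 3.01 to 3.41 and stood above percentile 95 of their list, while the bone marrow peak over them, of 5.01 kb, had 1.91 and stood at percentile 30.3. Wide bone marrow cover and strong bone marrow enrichment were thus not the same in these examples.

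The share of regions filled more in bone marrow fell with width. Of shared regions from 5 kb to under 7.5 kb, 278 of 1648 (16.9%, 95% Wilson interval 15.1 to 18.8%) were filled more in bone marrow. From 7.5 kb to under 10 kb, 147 of 965 were (15.2%, 13.1 to 17.6%). The share was 8.44% (7.11 to 10.0%) from 10 kb to under 20 kb, with 120 of 1421, and 2.46% (1.54 to 3.90%) at 20 kb or more, with 17 of 691. Regions filled more in fetal liver showed no such fall, at 55.8%, 54.7%, 61.2% and 56.3% in the same classes. The median ratio over all shared wide regions, 0.73, itself meets the fetal liver criterion and lies far from the bone marrow one. The part of this in the contrast was not tested. Wide domains with more bone marrow cover were thus rare, and 5 of them, at 30.6 kb or more, are among the positions given above.

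The regions were spread over all 19 autosomes, from 9 on chromosome 19 to 61 on chromosome 2. Their number largely followed the number of shared wide regions. The share filled more in bone marrow ran from 5.73% (95% Wilson interval 3.04 to 10.5%) on chromosome 19 and 6.56% (3.79 to 11.1%) on chromosome 15 to 15.7% (11.1 to 21.6%) on chromosome 3 and 16.8% (11.5 to 23.8%) on chromosome 18. On 17 of the 19 chromosomes the interval held the value of all autosomes, 11.9%, and chromosomes 15 and 19 lay below it. Regions next to each other may share their state, and the intervals take no account of it. The excess of bone marrow bases summed to 1.37 Mb, of which 154 kb lay on chromosome 2, 118.5 kb on chromosome 7 and 111.3 kb on chromosome 11. The 56 regions with the largest excess held 24.98% of it, so the difference was not carried by a few domains. The share of the extra cover at edges ran from 49.0% on chromosome 13 to 82.1% on chromosome 16.

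**Figure D5:**
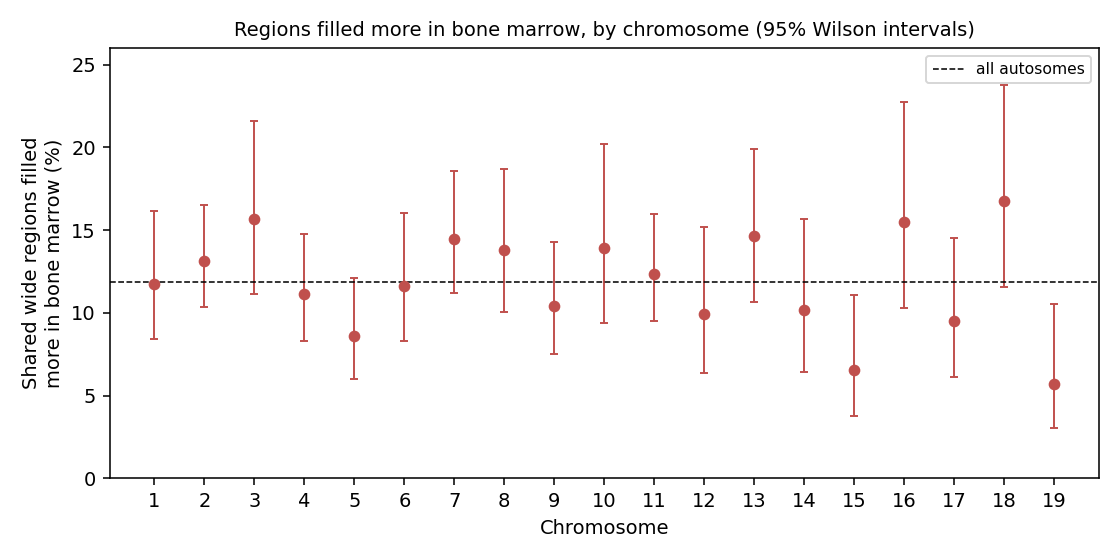
Share of shared autosomal regions of at least 5 kb that were filled more in bone marrow (vertical axis, %) for each chromosome, with 95% Wilson intervals over regions and the value of all autosomes as a dashed line. Points run from 5.73% on chromosome 19 to 16.8% on chromosome 18, and 17 of the 19 intervals cross the line.

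Most of these regions stood apart from each other. The median distance to the next one on the same chromosome was 1541 kb, and 71 of 543 such distances were 100 kb or less. In windows of 1 Mb, 327 held 1 of the regions, 68 held 2 and 30 held 3 or more. The fullest windows were on chromosome 13 from 21 to 22 Mb and on chromosome 2 from 129 to 130 Mb, each with 5. The chromosome 13 group included the region described above and, from 21358972 to 21369293, a region with 6.53 kb of bone marrow cover against 1.20 kb. The 5 regions of this window were among 8 shared wide regions and had 20.7 kb more in bone marrow together. In the chromosome 2 window the excess was 9.87 kb over 5 of 7. On chromosome 7, from 125 to 126 Mb, all 3 shared wide regions were filled more in bone marrow.

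The surroundings were also shifted towards bone marrow. Among the nearest shared wide regions on each side of the 562, 19.7% were themselves filled more in bone marrow, compared with 13.4% beside evenly filled regions and 9.45% beside regions filled more in fetal liver. Within 500 kb on each side, with the region itself left out, the median ratio of bone marrow to fetal liver bases was 0.72 around the 562 regions (interquartile range 0.58 to 0.92), 0.65 around evenly filled regions and 0.60 around regions filled more in fetal liver. Bone marrow still covered less than fetal liver in most of these flanks, and it covered more in 105 of 562 (18.7%), against 9.68% and 4.62% for the other classes. A region marked in bone marrow alone lay within 50 kb of 224 of the 562 (39.9%), compared with 25.4% and 23.0%. A region marked in fetal liver alone lay within 50 kb of 49.8%, compared with 59.0% and 74.6%. Flanks of neighbouring regions overlap, peaks just beyond the joining distance belong to them, and the density of cover differed between the classes, with medians of 28.5 kb, 30.1 kb and 37.3 kb of bone marrow cover in the flanks. The part of that density in these shares was not tested.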

How the data were processed

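H3K27me3 was mapped by native chromatin immunoprecipitation in 2 samples, each with its own input. The tools named in the submitters' processing notes are BWA 0.5.7, Picard and MACS2 2.1.0, on mm9; the sources used here do not give settings or read numbers. The authors deposited 1 broad peak list per cell type, with a fold enrichment (a ratio over input), a −log10 p, a −log10 q and a score per peak; the score was not used. Percentiles were ranked within each list. Cuts on fold enrichment or −log10 q used the same value for both lists, and fold enrichments of both are given side by side for a named region. Samples were grouped by title. Union regions, cover and the place of bases were computed with Python 3.11.15, numpy 2.4.6 and pandas 2.3.3, checked against bedtools 2.31.1 with identical totals and tested on simulated data. Wilson intervals came from scipy 1.17.1 and figures from matplotlib 3.10.9. The class and its description were chosen with earlier results of these data known. Named regions were the 15 with the largest excess, the 5 widest, the 5 with the highest ratio at 1 kb or more of fetal liver cover, the 3 with most edge and the 3 with most gap cover, and 3 on each side of the threshold; those not in the report are in the closing section. Groups of regions in 1 Mb windows were picked by their number. Genes and sequences were not analysed here, since the gene and promoter tables at hand were on GRCm38. The depth is unknown, so its effect on cover could not be measured.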

Additional observations from a re-analysis of the deposited data

How the results depend on the processing

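No paired analysis was possible because each cell type has a single list. The class depended strongly on how it was cut. As reported there were 562 regions (11.9% of shared wide autosomal regions), with 3.26 Mb in bone marrow and 1.89 Mb in fetal liver peaks, 59.0% of the bone-marrow-only bases at edges and 0.907 fetal liver peaks per bone marrow peak. Joining within 1 kb gave 365 regions (10.1%) and turned the peak ratio to 1.30. Joining within 10 kb gave 14.1%. Of the 562 regions, 271 and 420 overlapped one of the class under these settings. A minimum width of 2 kb gave 1329 regions (17.1%) with 5.06 Mb in bone marrow, and one of 10 kb gave 137 (6.49%) with 1.30 and 0.80 Mb. The edge share under these 2 widths was 70.1% and 43.7%. A ratio of at least 1.1 gave 17.1%, with 5.24 and 3.59 Mb, one of at least 1.5 gave 345 regions (7.30%) with 1.82 and 0.832 Mb, and one of at least 2 gave 196 (4.15%) with 0.941 and 0.312 Mb. Requiring 1 kb of common bases gave 10.8%. Keeping peaks whose −log10 q reached 1 gave 19.7%, and 275 of the 562 were overlapped. A −log10 q of at least 2 gave 138 regions (40.4%) with 0.955 and 0.249 Mb and 97.3% at edges, and 31 of the 562 were overlapped. A fold enrichment of at least 2 gave 34.9% with 6.32 Mb in bone marrow, and 190 were overlapped. With only as many top-ranked fetal liver peaks as bone marrow peaks there were 857 regions (22.8%) with 6.03 Mb in bone marrow. With fetal liver peaks taken up to the same covered length, a setting chosen after seeing the data, there were 925 (26.1%) with 7.02 and 3.10 Mb and a peak ratio of 0.592. Dividing the ratio by its median, also chosen later, gave 1427 (30.2%) with 11.3 and 9.70 Mb, and turned the peak ratio to 1.004. The edge share was then 49.9%. Peaks of at least 1 kb, a planned setting, gave 390 regions (11.4%), of which the share stayed inside its interval. Cuts on score leave fewer peaks, and the cut at a fold enrichment of 2 removed a larger part of the fetal liver list. The cause of these shifts, that of the edge share included, was not tested. Of 90 alternative values, 46 stayed within 1.5 times the reported one or, for the share of regions, inside its interval.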

Other observations

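On the X chromosome, which the rule leaves out, 43 shared regions reached 5 kb. Bone marrow cover was ahead of fetal liver cover by at least 25% in 20 of them (46.5%, 95% Wilson interval 32.5 to 61.1%), compared with 11.9% on the autosomes, and the opposite held in 11. The median ratio was 1.11 on X and 0.73 on the autosomes. Sex is not among the labels.

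Further regions were named for a high ratio or much edge cover. On chromosome 8, from 42214150 to 42221340, cover was 6.38 kb in adult against 1.24 kb in fetal cells. On chromosome 10, from 107766889 to 107774209, a single bone marrow peak of 7.19 kb covered nearly the whole region and reached 5.84 kb past a fetal liver peak of 1.48 kb, and that peak stood at percentile 92.8 of its list. On chromosome 5, from 32898678 to 32920588, there were 9.83 kb in 7 bone marrow peaks against 4.84 kb in 3 fetal ones, with 1.27 kb in common and 8.28 kb of bone marrow cover on one side alone.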
